A study of Mus musculus with 6 samples.

Results

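The genes described here are 6 cadherins other than VE-cadherin, *Cdh1*, *Cdh2*, *Cdh3*, *Cdh6*, *Cdh11* and *Cdh13*, in cultured mouse lung microvascular endothelial cells (LMVEC). They were chosen by gene name, and all 6 are among the 21999 genes of the table. *Cdh5*, which encodes VE-cadherin, was read beside them as the reference for endothelial content. The cells came from untreated SV129/B6 mice that were either *Ptprz1*+/+ or *Ptprz1*-/-, with 3 separate isolations of each genotype. Lungs of 2 to 5 mice, 3 to 8 weeks old, went into each isolation. The cells were grown to confluence and then sorted with magnetic beads carrying an antibody to CD31, an endothelial surface protein encoded by *Pecam1*. The series asked how the transcriptome of these cells differs between the genotypes.

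Classical cadherins are transmembrane proteins that hold neighbouring cells together at adherens junctions. Their outer domains bind cadherins of the next cell in the presence of calcium, and their cytoplasmic tails bind β-catenin or plakoglobin and p120-catenin, through which α-catenin and vinculin reach the actin cytoskeleton. E-, N- and P-cadherin (*Cdh1*, *Cdh2*, *Cdh3*) are type I cadherins, and K-cadherin (*Cdh6*), OB-cadherin (*Cdh11*) and VE-cadherin are type II. T-cadherin (*Cdh13*) is a relative that is held in the membrane by a lipid anchor and lacks the cytoplasmic tail, so it binds no catenin. In blood vessels, VE-cadherin forms the endothelial junction, N-cadherin is also made by endothelial cells and joins them to mural cells, and T-cadherin is found on endothelial cells as a receptor for adiponectin. E-cadherin is typical of epithelia, P-cadherin of basal epithelia and mesothelium, and OB-cadherin of mesenchymal cells such as fibroblasts. β-Catenin is a known substrate of the tyrosine phosphatase PTPRZ1.

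*Cdh11* was the most abundant member, and its transcript shares sequence with other mouse genes, which bears on its count. The following stretch of 100 bases of its coding sequence lies on the minus strand of GRCm38 at chr8:102679674-102679773. It is shown beside the matching stretches of *Gm21092* (plus strand, chr8:20567644-20567743) and *Gm21811* (plus strand, chr8:20136502-20136601). Sequences are from GENCODE M21 and run 5′ to 3′, and capitals mark bases that differ from *Cdh11*.
Cdh11: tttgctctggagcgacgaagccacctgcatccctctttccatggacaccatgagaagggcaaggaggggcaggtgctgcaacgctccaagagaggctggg
Gm21092: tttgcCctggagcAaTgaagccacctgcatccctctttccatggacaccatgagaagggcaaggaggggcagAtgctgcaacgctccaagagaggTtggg
Gm21811: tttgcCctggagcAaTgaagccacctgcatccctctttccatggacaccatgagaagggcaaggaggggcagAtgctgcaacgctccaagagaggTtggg
Each of these stretches differed from *Cdh11* at 5 of 100 bases. In all, transcripts of 7 other genes aligned to *Cdh11* over at least 100 bases, among them *Gm21811* over 908 bases at 95.7% identity and *Gm21092* over 974 bases at 93.4%. None of the other members, nor *Cdh5*, had such a match, and none shared exonic bases with another annotated gene.

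The gene counts summed to 16392715 to 17709663 per *Ptprz1*+/+ library, and to 14496881 to 15601584 per library labelled *Ptprz1*-/-. *Ptprz1* itself had 197 to 1837 counts in the former and 895 to 1320 in the latter, so its count did not separate the genotypes and directions rest on the labels. Values below are CPM, the usual read counts relative to library size, here with the library size scaled by edgeR's TMM method. The labelled cell type was checked against 12 endothelial markers. Their summed level was 30.2, 36.9 and 569 CPM for *Ptprz1*+/+ replicates 1, 2 and 3. For those labelled *Ptprz1*-/- it was 27.1, 17.2 and 185.5 CPM, so both libraries numbered 3 stood apart. In every library the sum of 10 fibroblast markers was higher, between 11792 and 28043 CPM.

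*Cdh5* had 8.70, 14.3 and 199 CPM in *Ptprz1*+/+ replicates 1, 2 and 3, and 3.60, 7.41 and 61.3 CPM in the libraries labelled *Ptprz1*-/-. It was highest in the library numbered 3 of each genotype, and the genotypes overlapped. In bulk RNA, fewer cells of a type and less RNA per cell cannot be told apart, so *Cdh5* gives endothelial content only in that joint sense.

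Levels of different genes were compared as CPM per kilobase of gene model. *Cdh11* was highest, with a mean of 81.0 ± 26.6 CPM per kilobase (SD over the 6 libraries), followed by *Cdh2* with 40.9 ± 13.1. *Cdh11* exceeded *Cdh2*, and *Cdh2* exceeded *Cdh5*, within each of the 6 libraries. *Cdh5* came next with 12.3 ± 19.2, then *Cdh3* with 5.14 ± 8.34 and *Cdh13* with 2.37 ± 1.99. These middle positions were not fixed. *Cdh5* was above *Cdh3* in 4 of 6 libraries and *Cdh3* above *Cdh13* in 3 of 6, so neither pair of neighbours differed beyond its spread. *Cdh6* was at 0.703 ± 0.238 CPM per kilobase, below *Cdh13* in each of the 6 libraries. *Cdh1* was lowest, at 0.0287 ± 0.0337, and its range did not reach that of *Cdh6*.

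**Figure D1:**
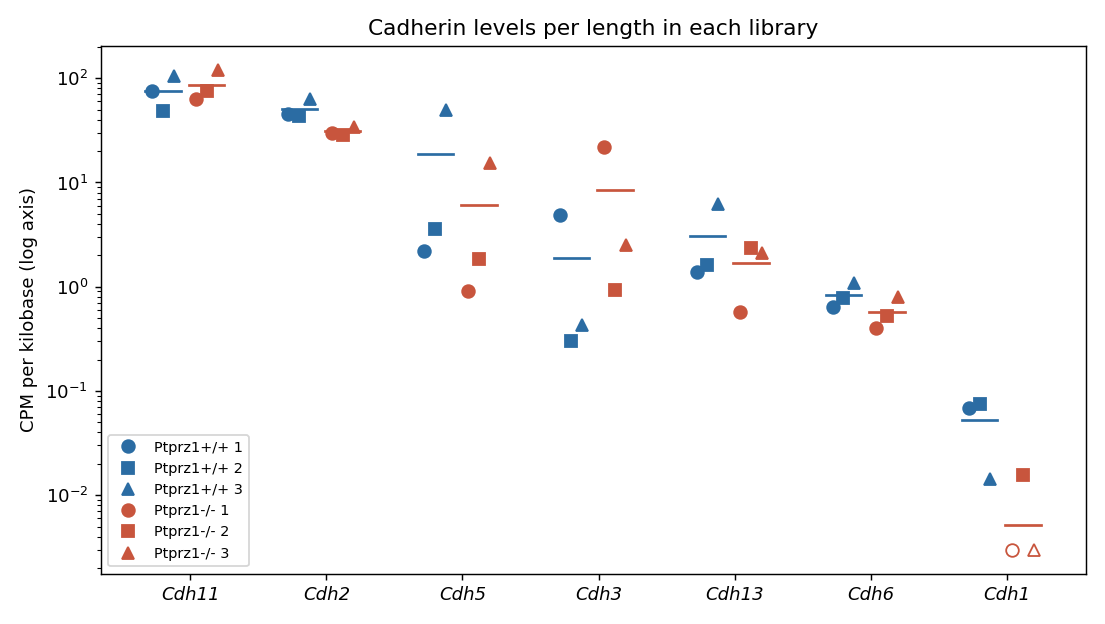
Level of each cadherin in CPM per kilobase on a log axis, by library. Blue marks are *Ptprz1*+/+ and red marks the libraries labelled *Ptprz1*-/-, circles, squares and triangles are replicates 1, 2 and 3, lines are means of 3 libraries, and open marks near the lower edge stand for a count of 0. *Cdh11* and *Cdh2* lead in every library, and *Cdh3* and *Cdh5* spread most.

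The make-up of the summed level per length was thus mostly *Cdh11* and *Cdh2*. Of the total over the 6 members and *Cdh5*, *Cdh11* took 58.0%, 49.2% and 46.2% in the *Ptprz1*+/+ libraries and 54.0%, 68.7% and 68.5% in those labelled *Ptprz1*-/-. *Cdh2* took 34.9%, 44.3% and 28.2% against 25.7%, 26.1% and 19.6%, and here, as for its CPM, the genotypes did not overlap. The VE-cadherin share was 1.69%, 3.66% and 22.1% against 0.775%, 1.69% and 8.77%. It was above 5% in the libraries numbered 3 only. Relative to *Cdh5*, per length, *Cdh2* was 12.1 to 20.7 times as high in *Ptprz1*+/+ replicates 2 and 1 and 1.28 times in replicate 3. In the libraries labelled *Ptprz1*-/- it was 33.1, 15.4 and 2.24 times as high in replicates 1, 2 and 3.

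**Figure D2:**
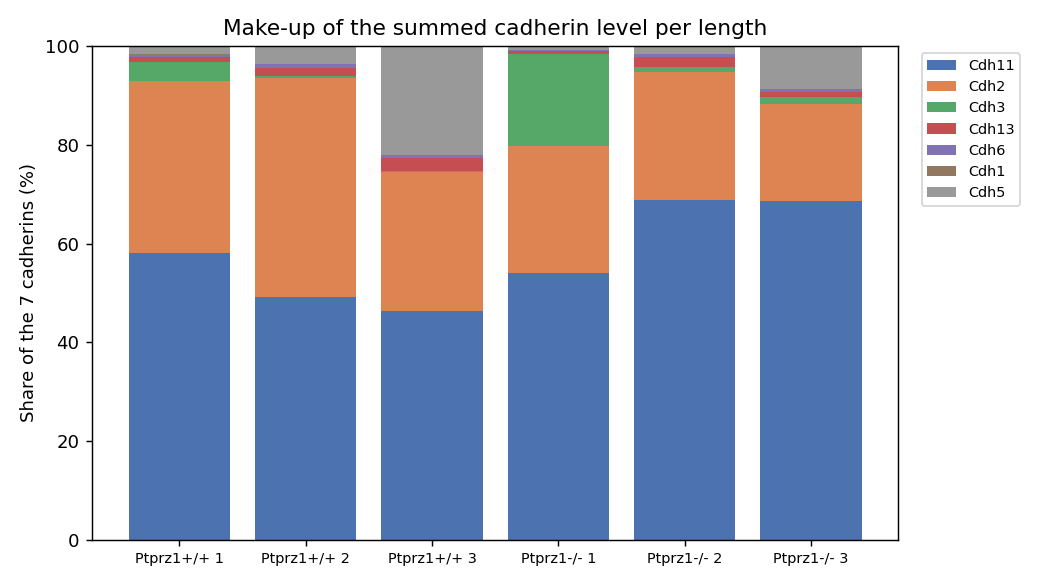
Share of each cadherin, in percent, in the summed CPM per kilobase of the 6 members and *Cdh5*, one bar per library. *Cdh11* and *Cdh2* fill most of each bar, *Cdh5* reaches 22.1% in *Ptprz1*+/+ replicate 3, and *Cdh3* reaches 18.7% in the library labelled *Ptprz1*-/- replicate 1.

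Between the genotypes, edgeR's quasi-likelihood test called 0 of 13609 genes (0%) at a Benjamini-Hochberg adjusted p under 0.05, and so none of the 5 members tested. At an unadjusted p under 0.05 it found 366 genes (2.69%), 212 of them lower in the libraries labelled *Ptprz1*-/- (1.56%), and of the members *Cdh2* alone. The libraries of the genotypes did not overlap for 991 genes (7.28%), with *Ptprz1*-/- above for 3.55% and below for 3.73%, and of the tested members for *Cdh2* alone. DESeq2 called 30 genes (0.22%), the likelihood ratio test 17 and limma voom 0, in each case without a member. *Cdh1* did not pass the filter on low counts and was not tested.

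*Cdh2* (ENSMUSG00000024304, GRCm38 chr18:16588877-16809246), N-cadherin, was lower in the libraries labelled *Ptprz1*-/-. It had 218, 211 and 308 CPM in *Ptprz1*+/+ replicates 1, 2 and 3 and 145, 139 and 167 CPM in those labelled *Ptprz1*-/-, resting on 2023 to 4884 reads per library. Each *Ptprz1*-/- library lay below each *Ptprz1*+/+ library, as did those of 3.73% of all genes tested. The means were 246 ± 54.1 and 150.0 ± 14.6 CPM (SD, n = 3 each). Its log2 fold change came to -0.71 (standard error 0.19, unadjusted p = 0.00829 and adjusted p = 1.00 in edgeR's quasi-likelihood test), which ranked 53 among 13609 genes by p. An exact two-sided permutation test of log2 CPM gave p = 0.10, the smallest that 3 libraries against 3 allow, and 0.60 after adjustment over the 6 genes so tested. The log2 fold change was -0.60 without both libraries numbered 3 and -0.57 (standard error 0.14) with the log2 CPM of *Cdh5* as a further term.

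*Cdh11* (ENSMUSG00000031673, chr8:102632995-102785111), OB-cadherin, did not separate the genotypes. It had 316, 203.8 and 439.6 CPM in the *Ptprz1*+/+ libraries and 265, 318 and 506 CPM in those labelled *Ptprz1*-/-. The library numbered 3 was the highest of each genotype. Its log2 fold change, 0.18 with a standard error of 0.36, was within the spread between replicates (adjusted p = 1.00 in edgeR's quasi-likelihood test). Its sign turned without *Ptprz1*+/+ replicate 2 (-0.06) or *Ptprz1*-/- replicate 3 (-0.14). It was 0.41 with *Cdh5* as a further term. The count is uncertain, because reads could be split with the genes of alike sequence shown above. Of those 7 genes 6 are in the table, and their counts summed to between 28.0% and 46.1% of the *Cdh11* count of the same library. With their counts added, the log2 fold change was 0.12 (standard error 0.32).

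The ratio of *Cdh11* to *Cdh2*, both per kilobase, was 1.66, 1.11 and 1.64 across the *Ptprz1*+/+ libraries. It was 2.10, 2.63 and 3.49 across those labelled *Ptprz1*-/-. It was picked after the counts had been seen and was not tested. The ratio holds the *Cdh2* values, which did not overlap between the genotypes, and those of *Cdh11*, which did. It was lowest in *Ptprz1*+/+ replicate 2 and highest in the library labelled *Ptprz1*-/- replicate 3, as *Cdh11* was.

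*Cdh3* (ENSMUSG00000061048, chr8:106510913-106556908), P-cadherin, varied widely between libraries of the same genotype. It had 19.5, 1.21 and 1.70 CPM in *Ptprz1*+/+ replicates 1, 2 and 3 and 86.6, 3.71 and 9.91 CPM in those labelled *Ptprz1*-/-, or between 22 and 1396 reads. The highest library was 71.6 times the lowest, and *Ptprz1*+/+ replicate 1 exceeded both other *Ptprz1*-/- libraries. Its SD within genotypes, 2.21 on the log2 CPM scale, lay at percentile 99.5 of all genes tested, whose median was 0.29. With a standard error of 1.48, the estimated log2 difference was 2.16 (adjusted p = 1.00 in edgeR's quasi-likelihood test). The estimate moved with the libraries kept. It was -0.12 without the library labelled *Ptprz1*-/- replicate 1 and 4.52 without *Ptprz1*+/+ replicate 1, but 2.12 without both libraries numbered 3. At each replicate number the library labelled *Ptprz1*-/- was the higher, though the labels do not pair the samples. With *Cdh5* as a further term, and no block, the estimate was 1.36.

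Mesothelial markers followed *Cdh3* in part. The summed level of 8 such genes was 252, 62.8 and 109.5 CPM in the *Ptprz1*+/+ libraries and 1578, 133 and 334 CPM in those labelled *Ptprz1*-/-. Like *Cdh3*, all 8 were highest in the library labelled *Ptprz1*-/- replicate 1, and 6 of 8 were lowest in *Ptprz1*+/+ replicate 2. The whole order of the 6 libraries was that of *Cdh3* for 3 of the 8 genes, *Upk1b*, *Upk3b* and *Bnc1*, while 0.345% of all other tested genes shared that order. *Upk1b*, a uroplakin, was at 56.1, 3.46 and 15.6 CPM and then 292, 25.1 and 42.3 CPM. *Upk3b*, another uroplakin, was at 57.5, 0.880 and 16.8 CPM and then 365, 28.7 and 48.5 CPM. *Lrrn4* and *Msln*, which encodes mesothelin, reached 394 and 204 CPM in the library labelled *Ptprz1*-/- replicate 1. Other members of the list departed from *Cdh3*. The keratin gene *Krt19* was about equal in *Ptprz1*+/+ and *Ptprz1*-/- replicates 1, at 7.73 and 8.19 CPM, and lowest in *Ptprz1*-/- replicate 3, at 0.793 CPM. *Wt1*, a transcription factor, was higher in *Ptprz1*+/+ replicate 2, at 32.7 CPM, than in replicate 1, at 26.5 CPM. All 8 fold changes pointed upwards, with a median log2 value of 2.35 against -0.0047 over all genes tested. In edgeR's quasi-likelihood test 0 of the 8 passed the adjusted threshold, and 1, *Lrrn4*, had an unadjusted p under 0.05 (0.0305), as did 2.69% of all genes tested. The epithelial markers *Krt18*, *Krt8*, *Epcam* and *Foxj1* stayed at or below 2.23 CPM in each library. The part of mesothelial transcripts in the *Cdh3* values was not tested.

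**Figure D3:**
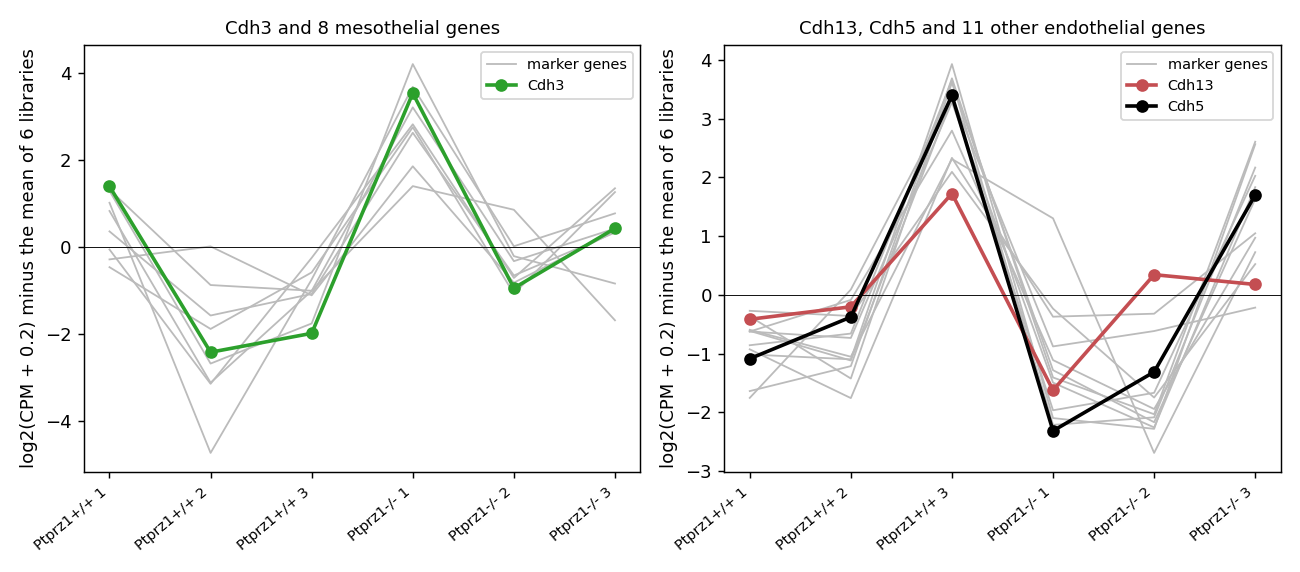
Pattern over the 6 libraries of *Cdh3* with 8 mesothelial markers (left) and of *Cdh13* and *Cdh5* with 11 other endothelial markers (right), as log2(CPM + 0.2) minus its mean over the libraries. Grey lines are marker genes, and lines join the values of a gene without implying an order of the libraries. *Cdh3* peaks with the mesothelial genes in the library labelled *Ptprz1*-/- replicate 1, and *Cdh13* and *Cdh5* both peak in *Ptprz1*+/+ replicate 3.

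*Cdh13* (ENSMUSG00000031841, chr8:118283733-119324921), T-cadherin, had 6.28, 7.31 and 28.4 CPM in the *Ptprz1*+/+ libraries and 2.61, 10.8 and 9.58 CPM in those labelled *Ptprz1*-/-. Its highest and lowest libraries were those of *Cdh5*, *Ptprz1*+/+ replicate 3 and the library labelled *Ptprz1*-/- replicate 1, and the genotypes overlapped. The range was narrower, 10.9-fold against 55.2-fold for *Cdh5*. Per kilobase, *Cdh13* was 0.631, 0.445 and 0.125 times *Cdh5* in the *Ptprz1*+/+ libraries and 0.632, 1.27 and 0.136 times in those labelled *Ptprz1*-/-, so it was lowest relative to *Cdh5* in the libraries numbered 3. For *Cdh13* the estimate was -0.87 on the log2 scale, with a standard error of 0.75 (adjusted p = 1.00 in edgeR's quasi-likelihood test). It was 0.17 without *Ptprz1*+/+ replicate 3, -0.025 without both libraries numbered 3 and -0.039 with *Cdh5* as a further term.

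*Cdh6* (ENSMUSG00000039385, chr15:13034200-13173639), K-cadherin, was low, with 28, 37 and 45 reads in the *Ptprz1*+/+ libraries and 17, 20 and 32 in those labelled *Ptprz1*-/-. This was 1.69, 2.03 and 2.84 CPM against 1.05, 1.37 and 2.11 CPM. The libraries stood in the same order as for *Cdh5*, but over a 2.69-fold range. That order was shared by 0.309% of the other tested genes. Of the markers, 1 of the 11 other endothelial genes and 1 of 10 smooth muscle and pericyte genes had it. Its log2 difference of -0.53, with a standard error of 0.39, was within the spread between replicates (adjusted p = 1.00 in edgeR's quasi-likelihood test). It was -0.31 with *Cdh5* as a further term and -0.30 without *Ptprz1*+/+ replicate 3.

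*Cdh1* (ENSMUSG00000000303, chr8:106603351-106670246), E-cadherin, lies next to *Cdh3* on the same strand and was close to absent from the counts. It had 5, 6 and 1 reads in *Ptprz1*+/+ replicates 1, 2 and 3 and 0, 1 and 0 reads in those labelled *Ptprz1*-/-. A count of 0 allows up to 3 counts, which is 0.186 CPM for replicate 1 and 0.198 CPM for replicate 3 of that genotype. Summed per genotype, 12 reads stood against 1, a normalized ratio of 0.0920 with a 95% exact interval of 0.00215 to 0.622, which covers counting error only. The library ranges overlapped. With no filter on low counts, edgeR's quasi-likelihood test gave an unadjusted p of 0.0446 and an adjusted p of 0.92.

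Transcription factors that bind the *Cdh1* promoter as repressors were all expressed. All 8 listed genes passed the filter, with summed levels of 520, 685 and 612 CPM in the *Ptprz1*+/+ libraries and 459, 658 and 669 CPM in those labelled *Ptprz1*-/-. None passed the adjusted threshold of edgeR's quasi-likelihood test in either direction (2 estimates higher and 6 lower, median log2 fold change -0.04). Per kilobase *Tcf3*, *Twist1*, *Tcf4* and *Snai1* were highest, with log2 fold changes of -0.04 (standard error 0.17), 0.03 (0.28), 0.25 (0.19) and -0.68 (0.54). For *Snai1* the spread lay in 1 library, since it had 22.4, 87.7 and 24.5 CPM in the *Ptprz1*+/+ libraries and 24.4 to 31.8 CPM in the others.

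The catenin partners were abundant, and their sum was 1590 to 2015 CPM in the *Ptprz1*+/+ libraries and 1652 to 1766 CPM in the others. Of 12 listed genes 11 were tested, and 0 passed the adjusted threshold (5 estimates higher, 6 lower, median log2 fold change -0.07), with 0 at an unadjusted p under 0.05 in edgeR's quasi-likelihood test. *Ctnnb1*, β-catenin, was present at 606, 1019 and 744 CPM across the *Ptprz1*+/+ libraries and 728, 754 and 756 CPM across the others. Its estimated log2 difference was -0.08 (standard error 0.23). *Ctnna1*, α-catenin, stayed between 394 and 468 CPM, with a log2 fold change of -0.07 (0.14). *Jup*, plakoglobin, was at 38.7 to 55.6 CPM except in the library labelled *Ptprz1*-/- replicate 1, which had 121 CPM and was also the highest for *Cdh3*. The log2 fold change of *Jup* was 0.57 (0.41), and that of *Vcl*, vinculin, which varied 4.38-fold over the libraries, was -0.23 (0.51).

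**Figure D4:**
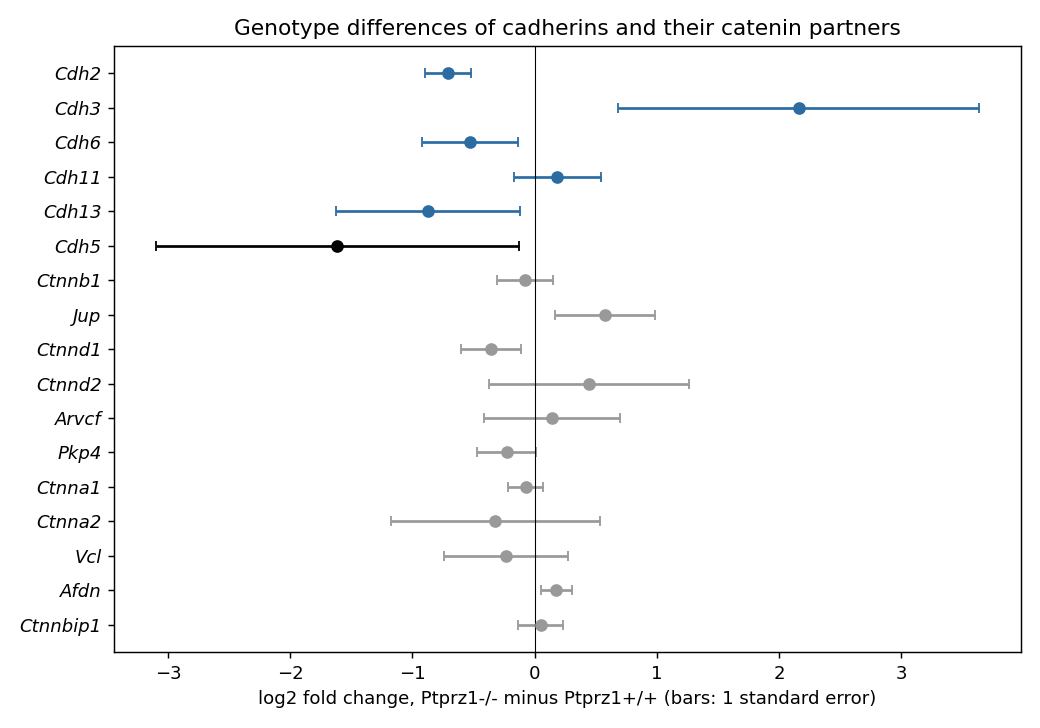
Log2 fold changes, libraries labelled *Ptprz1*-/- minus *Ptprz1*+/+, from edgeR's quasi-likelihood fit, with bars of 1 standard error. The 5 tested members are blue, *Cdh5* black and the 11 tested catenin partners grey. *Cdh2* lies at -0.71, and the bar of *Cdh3* reaches over a wide range around 2.16.

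Of 12 further classical cadherins, 5 passed the filter on low counts and 0 passed the adjusted threshold (0 also at an unadjusted p under 0.05 in edgeR's quasi-likelihood test), with 2 estimates higher and 3 lower. Their sum was 7.25 to 14.6 CPM in the *Ptprz1*+/+ libraries and 8.56 to 15.3 CPM in the others, of the order of *Cdh13* alone. *Cdh8*, a type II cadherin known from neurons, was at 0.846, 0.0550 and 7.07 CPM in the former and 1.05, 5.77 and 5.35 CPM in the latter. *Cdh24*, *Cdh10* and *Cdh18* had log2 fold changes of 0.18 (standard error 0.45), -0.33 (0.83) and -0.24 (0.70). Among 11 genes of cadherin cleavage and turnover, 10 were tested and 0 passed either in adjusted form or at an unadjusted p under 0.05, with 5 estimates in each direction. The most abundant were *Mmp3* and *Mmp14*, metalloproteinases of the matrix and the cell surface, the lysosomal protease gene *Ctsb*, and *Mmp2*. *Mmp3* was at 239 CPM in the library labelled *Ptprz1*-/- replicate 1 and at 1157 to 2018 CPM in the others. *Adam10*, the sheddase of N- and E-cadherin, was named after its values were seen and stayed between 162 and 236 CPM.

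For each tested member the 3 genes of most alike pattern were taken by the root mean square difference between log2 CPM, centred over the 6 libraries. For *Cdh2* these were *Emx2os* (0.0925), *Rab30* (0.106) and *Akap17b* (0.117), where the centred profile of *Cdh2* itself had a root mean square of 0.396. For *Cdh11* they were *Ssh2* (0.0701), *Plekhf1* (0.114) and *Impg2* (0.117), and for *Cdh6* *Nfkbie* (0.115), *Pcdhb22* (0.121), a protocadherin, and *Zfp78* (0.122). These were close matches, but the profiles of *Cdh11* and *Cdh6* were themselves of small size, at 0.436 and 0.428. For *Cdh3*, whose profile was larger at 2.08, they were *Tmem125* (0.427), *Fgd3* (0.602) and the mesothelial marker *Upk1b* (0.620). For *Cdh13*, at 1.01, they were *Adamts1* (0.240), *Hoxd8* (0.269) and *Tgfa* (0.275), each of which, like *Cdh13*, was highest in *Ptprz1*+/+ replicate 3.

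Markers of other cell types give the setting of these values. None of the 10 fibroblast markers passed the adjusted threshold of edgeR's quasi-likelihood test. An unadjusted p under 0.05 was found for 1 of them, and for 2.69% of all genes tested. Of the 10 estimates 9 were lower, with a median log2 fold change of -0.47. The log2 difference was -0.50 (standard error 0.36) for *Col1a1*, -0.11 (0.34) for *Col1a2*, -0.14 (0.61) for *Col3a1* and -0.80 (0.60) for *Dcn*, all collagen or matrix genes, and each of these overlapped between the genotypes. The libraries labelled *Ptprz1*-/- all lay below the others for 2 of the 10, as for *Cdh2* at -0.71 (0.19) and 3.73% of all genes. These were *Thy1*, a surface glycoprotein gene, at -0.86 (0.22), with an unadjusted p of 0.00748 that ranked 49, and *Fbln1*, fibulin-1, at -0.57 (0.32). *Col3a1*, like *Cdh11*, was highest in the libraries numbered 3, at 12458 and 13911 CPM against 4121 to 6851 CPM in the others. Smooth muscle and pericyte markers summed to 3810 and 4118 CPM in the libraries numbered 1 and to 423 to 1302 CPM in the others. *Cdh3* showed this split too, at 19.5 and 86.6 CPM against 1.21 to 9.91 CPM, and *Cdh2* did not. The actin genes *Acta2* and *Actg2* had log2 differences of -0.36 (1.03) and -0.35 (0.92), *Tagln*, transgelin, of 0.43 (0.92) and *Des*, desmin, of 2.20 (1.24). The median log2 fold change of the 12 endothelial markers was -1.43 with all 12 estimates lower, among them *Pecam1* at -1.49 (1.66), *Cldn5*, claudin-5, at -1.05 (1.81) and *Egfl7* at -1.71 (1.17). It was -0.05 for 10 smooth muscle and pericyte markers, -1.46 for 5 lymphatic endothelial markers and 0.42 for *Krt18*, the 1 epithelial marker tested. Of the lymphatic list, *Pdpn*, podoplanin, led with 202 to 283 CPM and a log2 fold change of -0.0019 (0.20). *Flt4* at 0.62 (0.51), *Lyve1* at -2.10 (1.55) and *Prox1* at -1.46 (0.73) followed. In this list 1 estimate was higher and 4 were lower. The 3 leukocyte markers tested, *Lyz2*, *Cd68* and *Csf1r*, all had lower estimates, *Itgam* was not tested, and the list summed to 13.4 to 51.7 CPM against 10.8 to 22.6 CPM. None of these genes passed the adjusted threshold. The leukocyte and lymphatic lists each held 1 gene at an unadjusted p under 0.05, where 2.69% of all genes tested lay. These were *Csf1r*, with 25 to 83 reads per library, and *Reln*, with 4 to 89. *Csf1r* did not overlap between the genotypes either, and *Reln* did. The part of the cell mixture in the *Cdh2* values was not tested beyond the fit with *Cdh5*.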

How the data were processed

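RNA of 6 LMVEC isolations, 3 per genotype, was analysed. Groups and replicate numbers were taken from the labels. The authors deposited 1 table of 21999 genes with read counts per gene and library, not normalized, and FPKM values computed from these counts. Mean values per genotype, fold changes and p-values of the authors' own comparison, and 3 lists of genes they called, were not used. The submitters' processing notes name STAR, HTSeq, TopHat, DESeq2, edgeR and GRCm38, with no roles. Use of strand in counting is not given in the sources used here.

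In R 4.3.3, edgeR 4.0.16 was used for TMM scaling, the filter on low counts (filterByExpr) and the quasi-likelihood test (glmQLFit, glmQLFTest) of genotype alone. P-values were adjusted by Benjamini-Hochberg over 13609 genes, with a threshold of 0.05. Log2 CPM used a prior count of 2. The standard error was taken as the size of the log2 estimate divided by the square root of F. Levels per length used the deposited gene lengths. Transcripts of GENCODE M21 were aligned with minimap2 2.31, keeping matches of at least 100 bases. The tests were checked on simulated counts with known changes. These were drawn with the same dispersion for all genes, unlike the real counts, so the check gives no error rate or power for these data.

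The text names the members, *Cdh5*, *Ptprz1*, the 4 genes of highest level per length in each list, any list gene past the threshold, and the 3 genes of most alike pattern. Genes beyond this rule (*Adam10*, *Bnc1*, *Krt19*, *Wt1*, *Thy1*, *Fbln1*, *Reln* and the genes resembling *Cdh11*) were named after their values were seen. Members and lists were chosen with earlier results of these data known. Alternatives were DESeq2 1.42.0, limma voom 3.58.1, the likelihood ratio test, other normalization and filters, left-out libraries, a replicate block and *Cdh5* as a term. Libraries are separate isolations, and no pair had the same counts. The labels give no batch.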

Additional observations from a re-analysis of the deposited data

How the results depend on the processing

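With edgeR's quasi-likelihood test 0 genes were called, as under each alternative but DESeq2 (30) and the likelihood ratio test (17), and from 0 to 0 with each library left out. No member passed the adjusted threshold under any alternative that tested it, and the lowest adjusted p was 0.31, for *Cdh2* with DESeq2. *Cdh2* and *Cdh6* kept their direction in all 15 alternatives. With each library left out, the log2 fold change ranged from -0.81 to -0.52 for *Cdh2*, from -0.12 to 4.52 for *Cdh3*, from -0.85 to -0.30 for *Cdh6*, from -0.14 to 0.48 for *Cdh11*, from -1.22 to 0.17 for *Cdh13* and from -3.76 to 1.06 for *Cdh5*. The log2 ratio of *Cdh1* counts ranged from -3.86 to -2.82, and gave no value without the library labelled *Ptprz1*-/- replicate 2, which held the only read of that genotype. Reversals came without the library labelled *Ptprz1*-/- replicate 1 for *Cdh3* (-0.12), without *Ptprz1*+/+ replicate 2 (-0.06) or the library labelled *Ptprz1*-/- replicate 3 (-0.14) for *Cdh11*, and without *Ptprz1*+/+ replicate 3 for *Cdh13* (0.17) and *Cdh5* (1.06). The addition of alike genes to *Cdh11* was chosen after seeing the data. A prior count of 0.5 changed no permutation p. *Cdh1* could not be fitted with filters on low counts.

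With the replicate number as a block, 0 genes were called and 690 had an unadjusted p under 0.05. The log2 fold changes were -0.69 for *Cdh2*, 2.12 for *Cdh3* (standard error 0.23), -0.55 for *Cdh6*, 0.20 for *Cdh11*, -0.77 for *Cdh13* and -1.32 for *Cdh5* (0.19), none past the adjusted threshold. In edgeR's quasi-likelihood test with this block, the unadjusted p was 0.000402 for *Cdh3*, 0.00133 for *Cdh5* and 0.00431 for *Cdh2*. It was above 0.05 for *Cdh6*, *Cdh11* and *Cdh13*. Over genes, deviations from the genotype means correlated at 0.45 between the libraries numbered 1, 0.52 between those numbered 3 and -0.06 between those numbered 2. *Ptprz1*+/+ replicate 1 against *Ptprz1*-/- replicate 3 gave -0.57, and replicate 3 against replicate 1 gave -0.46. The other pairs of unlike number lay between -0.02 and 0.09. Deviations of 3 libraries sum to 0, so the low value for number 2 cannot decide against pairing. The labels do not pair the samples, so the main fit had no block, and whether the numbers pair them was not settled. Depth limits *Cdh1* and *Cdh6*, with at most 6 and 45 reads per library.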
